A study of Homo sapiens with 12 samples.

Results

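The S100 and annexin genes encode calcium-binding proteins, and their RNA was followed in the human melanoma lines A375 and A375-BIR with and without the BRAF inhibitor dabrafenib. The members were taken by symbol among protein-coding genes: S100A with a number, S100B, S100P, S100G or S100Z for the S100 family, and ANXA with a number for the annexins. Of the 33694 human genes listed, 31 met the rule, 19 S100 genes and 12 annexins. A375 is an established line that carries an activating BRAF mutation, and the labels call A375-BIR its BRAF-inhibitor-resistant counterpart. How the resistant line was derived, and whether it is a clone, is not given in the sources used here. Both lines were kept in RPMI with 10% serum. The 4 groups were A375 with 0.1% DMSO for 48 h, A375 with dabrafenib at 200 nM for 48 h, A375-BIR with 0.1% DMSO and A375-BIR with dabrafenib at the same concentrations and time. The labels name 3 biological replicates per group, without saying whether these were separate cultures, so that the p-values measure only the spread between these libraries. For A375 with DMSO only replicate 1 was used, because the files of replicates 2 and 3 list mouse genes. That library also carries another stamp in its name than the 9 libraries of the other groups, and what the stamp marks is not given. Its reads differed too. Of them 20.1% fell on no annotated feature, against 28.6% to 30.9% in those 9. A further 52.5% had no unique alignment, against 40.0% to 49.4% in those 9. Effects tied to the stamp and effects of group cannot be told apart where that library is used.

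S100 proteins are small proteins with a pair of EF-hand calcium-binding loops. Most work as dimers that expose a binding surface when calcium is bound and then attach to target proteins, and several are also secreted and act on cell-surface receptors. Annexins are a separate family whose repeated core domain binds acidic phospholipids when calcium rises, and they serve in membrane repair, vesicle traffic and the link between membrane and actin. The families meet in known complexes: S100A10 with ANXA2, S100A11 with ANXA1, and S100A6 with ANXA11. S100B, and to a lesser degree S100A1, are long-used tissue markers of melanocytic tumours.

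Libraries were made from transcript 3′ ends, so that a count stands for a tag near the end of a transcript rather than for its length. Counts on genes ranged from 198690 to 1999840 per library, with a median of 570083. Levels are given as CPM, counts scaled to library totals that were adjusted by the trimmed mean of M-values (TMM), with the SD over 3 libraries where a mean is given. Where a group holds no count of a gene, its level could still be up to 1.09 CPM for the resistant line in DMSO, 1.49 for the same line in dabrafenib, 2.70 for A375 in dabrafenib and 1.88 for the A375 DMSO library, each from 3 counts and covering counting error only. Differences are log2 changes with a standard error from edgeR's quasi-likelihood test, and "called" means an adjusted p (Benjamini-Hochberg, over 10236 tested genes) under 0.05. Mitochondrially encoded genes took 4.63% to 7.21% of gene counts in A375-BIR and 10.7% to 15.1% in A375, and the part of this difference in the results below was not tested.

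Of the 31 members, 16 passed the filter on low counts, 9 S100 genes and 7 annexins, with 8 of the 9 S100 genes on chromosome 1. The filter needs enough counts in as many libraries as the smallest group holds, which is 1 because of A375 with DMSO. Without that library the smallest group holds 3, and the filter keeps 14 members and drops S100A2 and S100A4. The median of the mean level was 152 CPM over the 16 and 38.8 CPM over all tested genes. Of the 15 members below the filter, 6 had no count in any library: S100A8 and S100A12 of the calgranulins of neutrophils and monocytes, the epithelial S100A14, S100G, the vitamin D-dependent calbindin of the intestine, ANXA8 and ANXA13. S100A9, the partner of S100A8 in calprotectin, S100A7 (psoriasin), S100P and ANXA3 had 1 count each, S100A5 had 4 counts, ANXA10, an annexin of the stomach, had 5, ANXA9 had 10 and S100Z had 16. S100A3, a protein of the hair cuticle, had 45 counts in all, 14 of them in the A375 DMSO library, 2 in A375 with dabrafenib, 9 in A375-BIR with DMSO and 20 in A375-BIR with dabrafenib. The myeloid marker PTPRC was at 1 count and TYROBP at 0, and KRT5, KRT1, TP63 and DSG3 of the keratinocyte list were at 0.

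**Figure D1:**
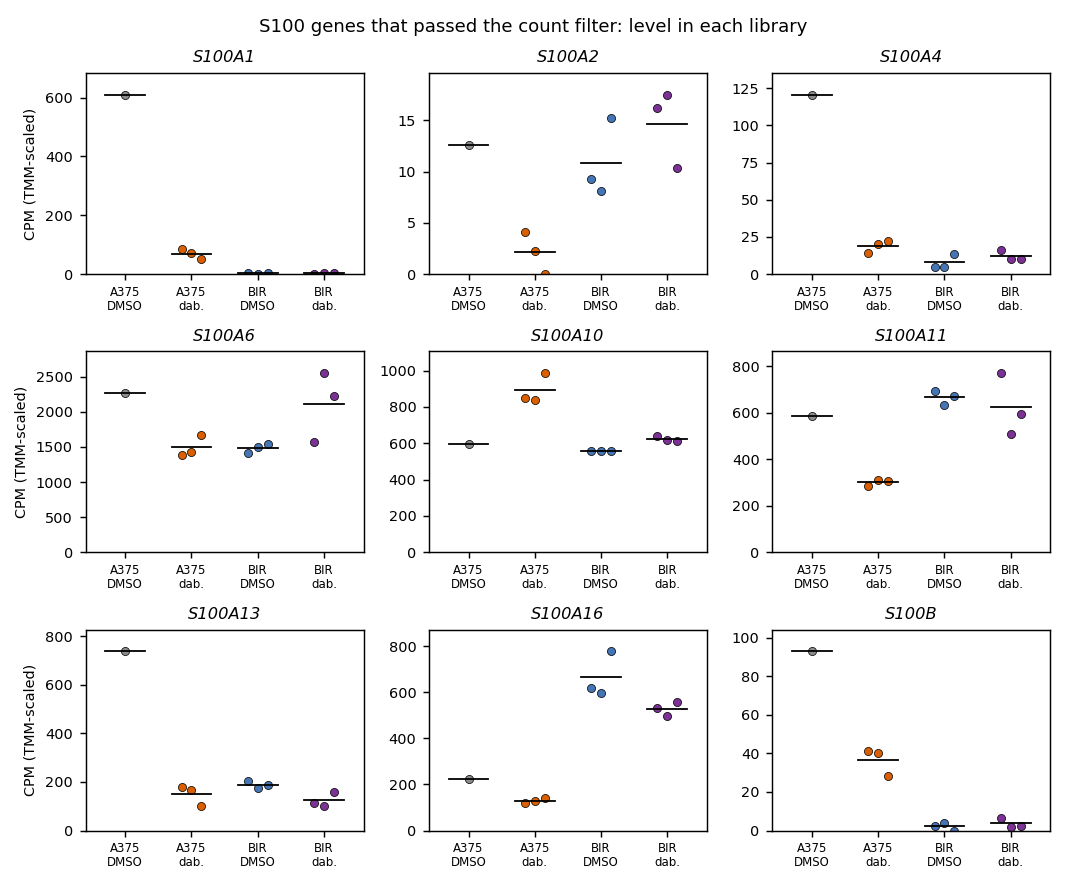
Level of each S100 gene that passed the count filter, in CPM on TMM-scaled totals (y axis, from 0, separate scale per gene) for each library of the 4 groups (x axis); points are libraries and bars are group means. S100A1, S100A4, S100A13 and S100B have their highest value in the single A375 DMSO library, and S100A16 is higher in every A375-BIR library than in any A375 library.

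The lines in dabrafenib were compared first, because both groups hold 3 libraries with the same stamp. A375-BIR had far less S100A1 and S100B RNA and less ANXA2 than A375, and more S100A16, S100A11, S100A2 and ANXA6. Of the 16 tested members, 7 were higher in A375-BIR (4 S100 genes, 3 annexins), 5 were lower (3 S100 genes, 2 annexins) and 4 were not called. Over all tested genes 42.7% were called, 22.6% higher and 20.2% lower. The groups did not overlap for 12 of the 16, against 48.2% of all tested genes. S100A1, a calcium sensor best known from heart muscle (chromosome 1, 153627926 to 153632039), stood at 86.6, 71.4 and 50.8 CPM in A375 with dabrafenib and at 0.952, 3.50 and 2.59 CPM in A375-BIR with dabrafenib. Every A375 value lies far above every A375-BIR value, and the log2 change was -5.09 ± 0.45 (adjusted p = 8.64e-12). S100B (chromosome 21, 46598962 to 46605208), the S100 protein measured in serum of melanoma patients, stood at 41.2, 40.2 and 28.2 CPM in A375 and at 6.66, 1.75 and 2.59 CPM in A375-BIR, again with no overlap (-3.07 ± 0.48, adjusted p = 1.99e-06). S100A16, a widely expressed member (chromosome 1, 153606886 to 153613145), went the other way, with 119.6, 127 and 141 CPM in A375 and 532, 495 and 559 CPM in A375-BIR (2.05 ± 0.19, adjusted p = 4.2e-11). S100A11 (chromosome 1, 152032506 to 152047907), which docks on the N terminus of ANXA1, was at 285, 312 and 305 CPM in A375 and at 771, 509 and 595 CPM in A375-BIR (1.07 ± 0.18, adjusted p = 9.79e-06). The A375-BIR libraries were the more spread ones for S100A11, but the lowest of them was still above the highest A375 library. S100A2, best known from epithelial cells (chromosome 1, 153561108 to 153567890), was low throughout, with 3 counts over the A375 dabrafenib libraries and 16.2, 17.5 and 10.4 CPM in A375-BIR. The ratio of its summed counts, each scaled to the total of its group, was 5.71, with a 95% counting interval of 1.78 to 29.2 (adjusted p = 0.00658).

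Among the annexins in dabrafenib, ANXA2 had the largest fitted difference of the 7. ANXA2, a cell-surface cofactor of plasminogen activation (chromosome 15, 60347134 to 60402883), stood at 773, 777 and 835 CPM in A375 and at 174, 173 and 230.3 CPM in A375-BIR (-2.06 ± 0.17, adjusted p = 1.74e-12). The last 500 bases of its transcripts are 99.4% identical to the pseudogene ANXA2P2. Reads that match both may be left out as not unique, so that the level of ANXA2 is uncertain. ANXA6, an annexin with a doubled core that binds endosomal membranes (chromosome 5, 151100712 to 151157882), stood at 45.4, 55.8 and 56.4 CPM in A375 and at 143, 105 and 119 CPM in A375-BIR (1.27 ± 0.23, adjusted p = 3.13e-05). These differences left no overlap between the groups. S100A10, the constitutive partner of ANXA2 (chromosome 1, 151982915 to 151994390), was at 849.6, 839 and 987 CPM in A375 and at 639.7, 619 and 613 CPM in A375-BIR, lower as ANXA2 was but by less (-0.51 ± 0.16, adjusted p = 0.012). S100A6 (0.50 ± 0.19, adjusted p = 0.0301), ANXA1 (0.42 ± 0.17, adjusted p = 0.0438) and ANXA11 (0.48 ± 0.20, adjusted p = 0.0467) were higher in A375-BIR, and ANXA5 was lower (-0.55 ± 0.20, adjusted p = 0.0215). S100A4 (-0.44 ± 0.45, adjusted p = 0.45), S100A13 (-0.37 ± 0.21, adjusted p = 0.151), ANXA7 (-0.65 ± 0.41, adjusted p = 0.206) and ANXA4 (30.9, 33.5 and 45.1 CPM in A375, 36.2, 42.0 and 20.7 CPM in A375-BIR) were not called. The calls of S100A1, S100A2, S100A11, S100A16, S100B, ANXA2 and ANXA6 held under every alternative that tested them, whereas leaving out any of 9 libraries ended that of ANXA1 (0.36 to 0.45), any of 8 that of ANXA11 (0.36 to 0.54), A375-BIR dabrafenib replicate 2 or A375 dabrafenib replicate 1 or 2 that of S100A6 (0.35 to 0.47), A375-BIR dabrafenib replicate 3 or A375 dabrafenib replicate 2 that of ANXA5 (-0.45 to -0.40), and A375 dabrafenib replicate 3 that of S100A10 (-0.44). Without A375-BIR dabrafenib replicate 3, S100A13 was called lower (-0.54), and scaling by library totals, which moved the median of all genes by 0.12, left 7 members higher and 3 lower. A fit of only these groups called 3 members higher and 5 lower, beside 3123 of 7550 genes. It did not test S100A2 and ended the calls of ANXA1, ANXA11 and S100A6. DESeq2 called 5 members higher and 4 lower, beside 3445 of 10236 genes.

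**Figure D2:**
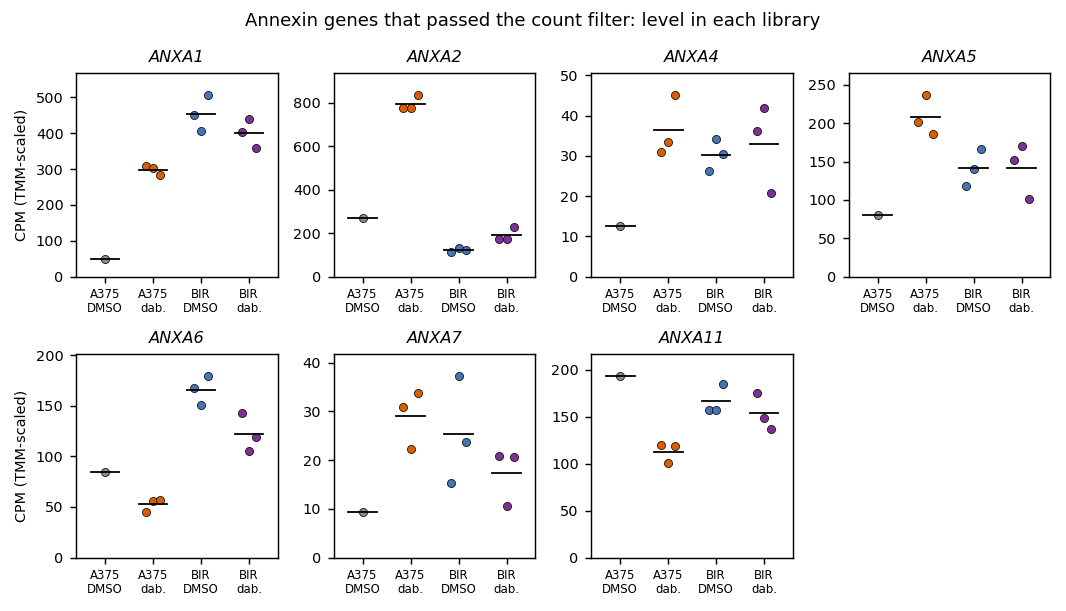
Level of each annexin gene that passed the count filter, in CPM on TMM-scaled totals (y axis, from 0, separate scale per gene) for each library of the 4 groups (x axis); points are libraries and bars are group means. ANXA1, ANXA4, ANXA5 and ANXA7 have their lowest value in the single A375 DMSO library, and ANXA2 is highest in the 3 libraries of A375 with dabrafenib.

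The second comparison of libraries with the same stamp asked which members respond to dabrafenib in the resistant line. Only ANXA2 was called, and the other 15 tested members were not. Over all tested genes 2.46% were called, 1.36% higher and 1.10% lower, so that 1 of 16 members is close to the background. ANXA2 went from 112, 130.03 and 124 CPM with DMSO to 174, 173 and 230.3 CPM with dabrafenib, a log2 change of 0.64 ± 0.18 (adjusted p = 0.0392). All dabrafenib values lay above all DMSO values. Groups that do not overlap were also found for S100A6 and S100A10, higher with dabrafenib, and for S100A13, S100A16 and ANXA6, lower with it, where 9.07% of all tested genes did not overlap upwards and 8.91% downwards. S100A13, a copper-binding member that takes part in the release of FGF1 (chromosome 1, 153618787 to 153631360), had DMSO values of 204, 173 and 189.6 CPM and dabrafenib values of 112, 101 and 158 CPM. Its log2 change of -0.64 ± 0.19 had an adjusted p of 0.0543 and was not called. S100A6, also called calcyclin (chromosome 1, 153534599 to 153536244), had DMSO values of 1413, 1505 and 1544 CPM and dabrafenib values of 1569, 2554 and 2226 CPM (0.51 ± 0.19, adjusted p = 0.155). The dabrafenib libraries of S100A6 were spread widely, with replicate 1 close to the DMSO values. S100A10 moved little and with little spread, from 557, 560.5 and 557 CPM to 639.7, 619 and 613 CPM (0.16 ± 0.16, adjusted p = 0.715), and S100A16 (-0.33 ± 0.16, adjusted p = 0.347) and ANXA6 (-0.41 ± 0.18, adjusted p = 0.248) were lower in every dabrafenib library. S100A1 (2.31 ± 1.21 CPM with DMSO, 2.35 ± 1.29 with dabrafenib) and S100B (2.19 ± 2.04 and 3.67 ± 2.63) were low in both groups, and no difference was detectable at this depth (-0.11 ± 0.82 and 0.78 ± 0.71). The median over the 16 was -0.017, beside 0.018 over all tested genes. The call of ANXA2 ended without any of A375-BIR DMSO replicates 1, 2 and 3, A375-BIR dabrafenib replicate 3 or A375 dabrafenib replicates 1 and 2 (0.52 to 0.70), and under 3 other settings (0.43 to 0.66). S100A13 was called lower without A375-BIR dabrafenib replicate 3 (-0.81) or with no count filter (-0.67), and S100A6 was called higher without A375-BIR dabrafenib replicate 1 (0.69).

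The response of A375 to dabrafenib compares 3 libraries with 1 that carries another stamp. Annexins mostly stood higher and S100 genes mostly lower with dabrafenib. Of the 16 tested members 15 were called, 6 higher and 9 lower, and the groups did not overlap for 16 of the 16, nor for 71.9% of all tested genes. Over all tested genes 38.6% were called, 17.9% higher and 20.7% lower. S100A2 and S100A4 are among the 9 lower and do not pass the count filter without the DMSO library, when more libraries must reach the minimum. This leaves 6 higher and 7 lower of the 14 members that pass without that library. By family, these were 1 S100 gene higher and 5 lower of 7 (median log2 change -0.97), and 5 annexins higher and 2 lower of 7 (median 1.45), beside a median of 0 over all tested genes. ANXA1, a glucocorticoid-induced ligand of formyl peptide receptors (chromosome 9, 73151757 to 73170393), rose from 50.2 CPM in the DMSO library to 309, 304 and 282 CPM (2.58 ± 0.28, adjusted p = 3.8e-09). ANXA2 stood at 271 CPM with DMSO against 773, 777 and 835 CPM with dabrafenib (1.55 ± 0.24, adjusted p = 3.04e-06). ANXA5, the phosphatidylserine binder used to stain dying cells (chromosome 4, 121667955 to 121697113), rose from 79.7 CPM to 202, 237 and 186 CPM (1.40 ± 0.27, adjusted p = 8.72e-05). In each of these 3 annexins the gap between the DMSO library and the lowest dabrafenib library was wider than the range of the dabrafenib libraries. ANXA4, a membrane binder of epithelia (chromosome 2, 69644425 to 69827100), went from 12.6 to 30.9, 33.5 and 45.1 CPM (1.45 ± 0.43, adjusted p = 0.00735). ANXA7, or synexin, named for its part in granule fusion (chromosome 10, 73375101 to 73414076), went from 9.42 to 30.9, 22.3 and 33.8 CPM (1.56 ± 0.52, adjusted p = 0.0162). ANXA6 (84.8 CPM with DMSO, -0.72 ± 0.28, adjusted p = 0.0422) and ANXA11 (chromosome 10, 80150889 to 80205572), which tethers RNA granules to lysosomes, were lower with dabrafenib. ANXA11 fell from 193 CPM to 119.6, 100.4 and 118 CPM (-0.79 ± 0.23, adjusted p = 0.00749).

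In the same comparison S100A1 had the lowest fitted change of the 16, from 609.7 CPM with DMSO to 86.6, 71.4 and 50.8 CPM with dabrafenib (-3.05 ± 0.23, adjusted p = 1.29e-12). S100A4, the myosin-binding protein known as metastasin (chromosome 1, 153543613 to 153550136), went from 121 CPM to 14.4, 20.1 and 22.6 CPM (-2.73 ± 0.35, adjusted p = 1.13e-07). S100A13 went from 739 CPM to 179, 165 and 102 CPM (-2.24 ± 0.23, adjusted p = 9.19e-10). S100A1 and S100A13 were thus lower in each dabrafenib library by a wide margin, and so was S100A4, which passes the count filter only with the DMSO library. S100B (92.9 CPM with DMSO, -1.27 ± 0.32, adjusted p = 0.00191), S100A11 (588 CPM, -0.97 ± 0.23, adjusted p = 0.00111) and S100A16 (225 CPM, -0.82 ± 0.25, adjusted p = 0.0078) fell as well. S100A2 stood at 12.6 CPM with DMSO and was called lower with dabrafenib. Its summed counts, each scaled to the total of its group, were 4.65 times those with dabrafenib, with a 95% counting interval of 1.38 to 24.4. S100A10 was the only S100 gene called higher, from 598 to 892 ± 82.6 CPM (0.57 ± 0.23, adjusted p = 0.0484). S100A6 had 2267 CPM in the DMSO library and 1392, 1433 and 1664 CPM after dabrafenib, a change that was not called (-0.60 ± 0.26, adjusted p = 0.0572). Calls that ended when 1 library was left out were those of ANXA6 and S100A10 (any A375-BIR DMSO or A375 dabrafenib replicate, -0.79 to -0.60 and 0.50 to 0.62), S100A2 (A375 dabrafenib replicate 2 or 3, -2.00 to -1.91), ANXA7 (A375 dabrafenib replicate 1, 1.44) and ANXA11 (A375 dabrafenib replicate 2, -0.69), while S100A6 was called lower without any 1 of the A375-BIR dabrafenib libraries (-0.61 to -0.60). Scaling by library totals alone moved the median of all genes by 0.27, ended the calls of S100A2, S100A16 (-0.56), ANXA6 and ANXA11 and left 6 members higher and 5 lower, and DESeq2 or thinning to equal depth ended that of S100B (-1.30 to -1.23).

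The lines in DMSO again set 3 A375-BIR libraries against the single A375 library. S100A1, S100B and S100A13 were lower in A375-BIR by large factors, and ANXA1 was higher by a large factor. S100A4 was lower as well, but it passes the count filter only with the A375 library, where it is highest. Of the 16 members 6 were higher in A375-BIR, 6 were lower and 4 were not called, where 51.8% of all tested genes were called, 25.1% higher and 26.7% lower. No overlap was seen for 15 of the 16, and for 84.4% of all tested genes. S100A1 stood at 609.7 CPM in A375 and at 2.54, 1.01 and 3.39 CPM in A375-BIR (-8.02 ± 0.32, adjusted p = 3.55e-21). S100B stood at 92.9 CPM in A375 and at 2.54, 4.03 and 0 CPM in A375-BIR (-5.11 ± 0.42, adjusted p = 1.06e-12). S100A4 stood at 121 CPM in A375 and at 5.08, 5.04 and 13.5 CPM in A375-BIR (-4.08 ± 0.33, adjusted p = 9.48e-13). The A375-BIR values of S100A1 rest on 6 counts and those of S100B on 7, against 971 and 148 counts in the A375 library. S100A13 (-1.96 ± 0.21, adjusted p = 9.28e-10), ANXA2 (-1.15 ± 0.22, adjusted p = 3.48e-05) and S100A6 (-0.61 ± 0.25, adjusted p = 0.0414) were the other members that were lower. ANXA1 was higher in A375-BIR, at 452, 405 and 506 CPM against 50.2 CPM (3.17 ± 0.28, adjusted p = 7.32e-12), and S100A16 at 617, 598 and 779 CPM against 225 CPM (1.56 ± 0.25, adjusted p = 1.96e-06). ANXA7 (1.40 ± 0.47), ANXA4 (1.25 ± 0.39), ANXA6 (0.96 ± 0.24) and ANXA5 (0.80 ± 0.26) were also higher, with adjusted p from 0.00108 to 0.0115, so that 5 of 7 annexins were higher. Of the 7 S100 genes that pass the filter without the A375 library, 4 were lower and 1 was higher. S100A10 (-0.10), S100A11 (0.18), S100A2 (-0.29) and ANXA11 (-0.23) were not called. The call of S100A6 ended without any 1 of the A375-BIR DMSO libraries or A375 dabrafenib replicate 1 or 2 (-0.64 to -0.57), and that of ANXA7 without A375-BIR DMSO replicate 2 (0.96). Scaling by library totals moved the median of all genes by 0.40, ended the call of S100A6 (-0.21) and called S100A11 higher (0.58), while DESeq2 ended that of ANXA4 (1.27) and thinning those of ANXA5 (0.79) and ANXA6 (0.81).

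The difference between the responses, that of A375-BIR minus that of A375, was tested as 1 term of the same fit. It was positive for 6 S100 genes and negative for 4 annexins, with no call the other way in either family. Without S100A2 and S100A4, which the filter drops when the A375 DMSO library is left out, 4 of 7 S100 genes were called. Of the 16 members 10 were called, beside 22.6% of all tested genes, 12.7% higher and 9.87% lower. The S100 genes were S100A4 (3.65 ± 0.58, adjusted p = 2.33e-05), S100A1 (2.94 ± 1.03, adjusted p = 0.0358), S100A2 (2.72 ± 0.91, adjusted p = 0.0281), S100A13 (1.59 ± 0.30, adjusted p = 0.000216), S100A6 (1.11 ± 0.31, adjusted p = 0.00968) and S100A11 (0.89 ± 0.29, adjusted p = 0.0241). In each of the 6, the A375 change was below the A375-BIR change, and that of S100A2 rests on 3 counts in A375 with dabrafenib. The A375-BIR change of S100A1 rests on 6 counts with DMSO and 4 with dabrafenib, which leaves little room for a fall to be seen. The annexins were ANXA1 (-2.75 ± 0.32, adjusted p = 7.83e-08), ANXA7 (-2.05 ± 0.63, adjusted p = 0.0161), ANXA5 (-1.36 ± 0.33, adjusted p = 0.00259) and ANXA2 (-0.91 ± 0.29, adjusted p = 0.0203). For ANXA1 the A375 change was 2.58 and the A375-BIR change -0.17, and the A375 DMSO library is the one that stands apart from the other 3 groups. S100B (2.04, adjusted p = 0.0627), ANXA4 (-1.25, adjusted p = 0.0711), ANXA11 (0.71, adjusted p = 0.0742), S100A16 (0.49), ANXA6 (0.31) and S100A10 (-0.41) were not called. The calls of ANXA1, S100A4, S100A6 and S100A13 held under every alternative that tested them, and that of ANXA5 ended only when counts were thinned (-1.16). Scaling by library totals, which moved the median of all genes by -0.28, left 3 members higher and 5 lower. The calls that ended when 1 library was left out were those of S100A1 (A375-BIR DMSO replicate 2, A375-BIR dabrafenib replicate 2 or 3, or A375 dabrafenib replicate 2, 2.45 to 2.91), S100A2 (A375-BIR DMSO replicate 1 or 2, A375-BIR dabrafenib replicate 1, or A375 dabrafenib replicate 2 or 3, 2.48 to 2.65), S100A11 (A375-BIR DMSO replicate 1 or 2, A375-BIR dabrafenib replicate 1, or A375 dabrafenib replicate 1 or 2, 0.69 to 0.91), ANXA7 (A375-BIR DMSO replicate 2 or A375 dabrafenib replicate 1, -1.94 to -1.62) and ANXA2 (A375-BIR DMSO replicate 2, -0.85), while S100B was called without A375-BIR DMSO replicate 2 or A375-BIR dabrafenib replicate 2 or 3 (2.19 to 2.58), ANXA11 without A375-BIR dabrafenib replicate 2 or 3 (0.75 to 0.79) and ANXA4 without A375-BIR dabrafenib replicate 2 (-1.38).

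**Figure D3:**
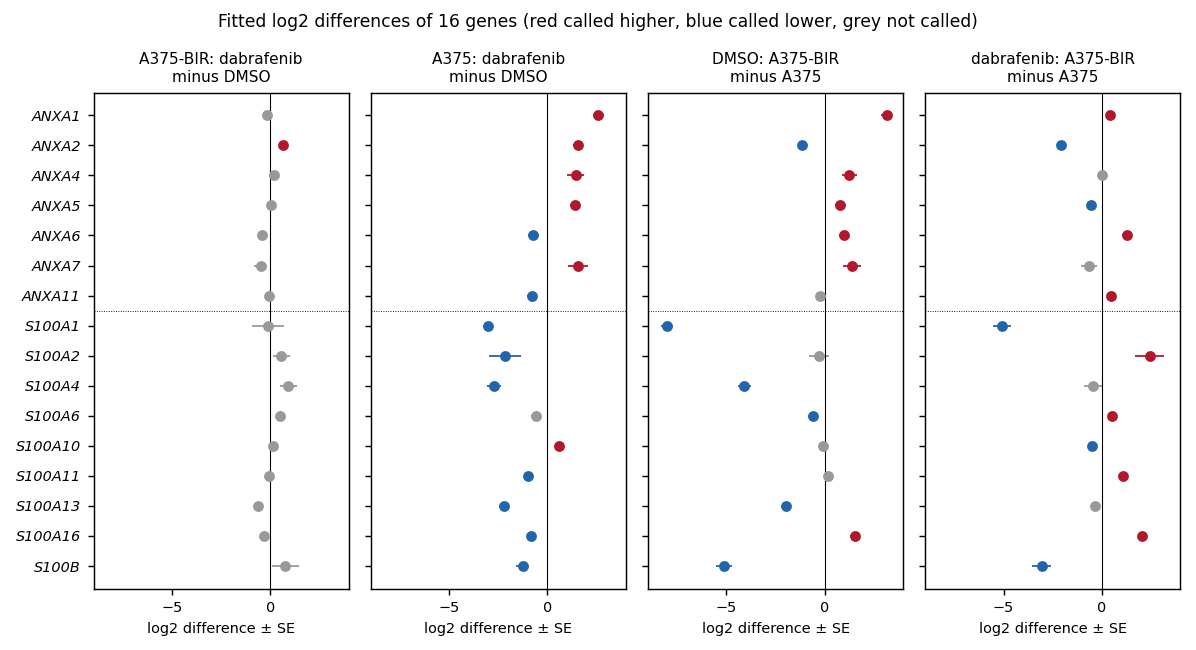
Log2 change of each tested S100 and annexin gene in the 4 comparisons of a pair of groups (x axis) by gene (y axis), with bars of 1 standard error from the edgeR fit; red points were called higher, blue points called lower and grey points not called at adjusted p under 0.05. In A375-BIR only ANXA2 was called, beside 2.46% of all tested genes. In A375, with a single DMSO library, 15 of 16 were called, beside 38.6% of all tested genes.

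Summed over members, the families showed the same split in A375. The 19 S100 genes together gave 5267 CPM in the A375 DMSO library and 2976, 3011 and 3311 CPM with dabrafenib, and the 12 annexins gave 701 CPM and 1512, 1529 and 1557 CPM. In A375-BIR the S100 sum was 3508, 3491 and 3785 CPM with DMSO and 3679, 4323 and 4190 CPM with dabrafenib, and the annexin sum was 1049.9, 1056 and 1215 CPM and 1114, 1089.9 and 989 CPM. The S100 groups of A375-BIR overlap, as do its annexin groups. S100A6 carries much of the S100 sum, from 1392 to 2554 CPM over the 10 libraries.

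**Figure D4:**
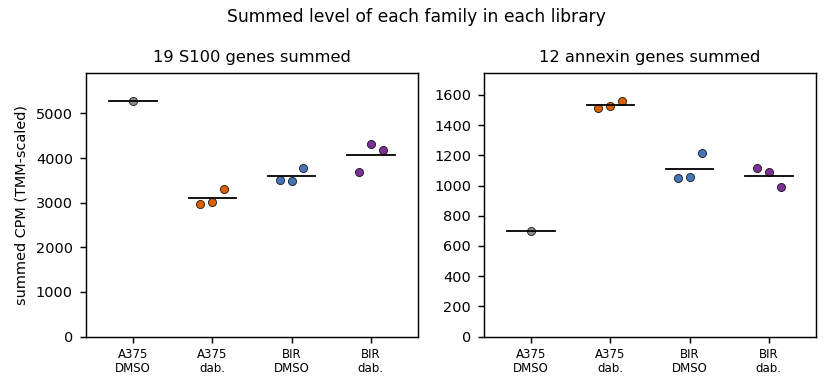
Summed level of the 19 S100 genes (left) and of the 12 annexin genes (right) in CPM on TMM-scaled totals (y axis, from 0) for each library of the 4 groups (x axis); points are libraries and bars are group means. The A375 DMSO library is the highest of all for the S100 sum, at 5267 CPM, and the lowest of all for the annexin sum, at 701 CPM.

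The genes of the known complexes were called in the same direction in some comparisons and not in others. In A375 with dabrafenib, S100A10 and ANXA2 were both called higher, by 0.57 and 1.55 on the log2 scale. S100A11 was called lower while its partner ANXA1 was called higher, with changes of -0.97 and 2.58. S100A6 was not called (-0.60) while ANXA11 was called lower (-0.79). Between the lines in dabrafenib S100A10 and ANXA2 were both lower in A375-BIR (-0.51 and -2.06), S100A11 and ANXA1 both higher (1.07 and 0.42), and S100A6 and ANXA11 both higher (0.50 and 0.48). Of the 18 alternatives, 15 ended that call of ANXA1, 14 that of ANXA11 and 5 that of S100A6, whose groups overlapped. Between the lines in DMSO ANXA2 was lower in A375-BIR with S100A10 not called (-1.15 and -0.10), ANXA1 was higher with S100A11 not called (3.17 and 0.18), and S100A6 was lower with ANXA11 not called (-0.61 and -0.23). In the response of A375-BIR only ANXA2 of these 6 genes was called. RNA levels say nothing of how much of each protein is in a complex.

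On chromosome 1, 15 of the 19 S100 members lie between positions 151982915 and 153632039 (GENCODE 29, GRCh38), and 8 of them were tested. Along the chromosome from S100A10, S100A11, S100A6, S100A4, S100A2, S100A16, S100A13 to S100A1, neighbours did not share 1 direction. In dabrafenib the log2 change between lines was -0.44 for S100A4 (not called), 2.05 for S100A16, -0.37 for S100A13 (not called) and -5.09 for S100A1, and the scaled summed counts of S100A2 had a ratio of 5.71. S100A16, higher in A375-BIR, thus lies close to S100A1, which was lower. Among 11 other tested genes of this stretch and 200000 bases to either side, 2 were higher and 4 lower in that comparison, and none passed the test for dabrafenib in A375-BIR, as 0 of the 8 S100 genes did. S100A1 lies on the plus strand and S100A13 on the minus strand, and their annotated spans overlap by 3435 bases. The sources used here do not give the strand setting of the counting, and without strand reads from the overlap cannot be told apart. The exons of neither gene cover the last 500 bases of the other's span, where 3′ tags fall. Within the last 500 bases of S100A1 transcripts, however, 159 bases match a noncoding S100A13 transcript at 98.7% identity, and exons of other noncoding genes on the opposite strand cover the ends of S100A1 and S100A6. S100A3 lies within the span of S100A4 on the same strand.

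**Figure D5:**
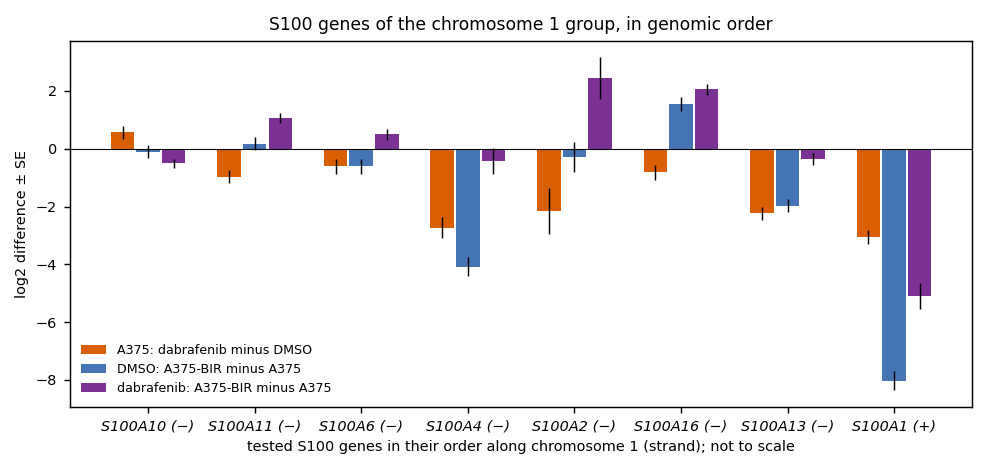
Log2 change (y axis) of the 8 tested S100 genes of chromosome 1 in their order along the chromosome (x axis, not to scale) for the response of A375 (orange), the lines in DMSO (blue) and the lines in dabrafenib (purple), with lines of 1 standard error. S100A1, last in the order, reached -8.02 between the lines in DMSO, while S100A16 stood at 1.56 in that comparison.

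S100A1 and S100A13 both fell in A375 with dabrafenib and both were lower in A375-BIR with DMSO, and their start sites face away from each other, 929 bases apart for the nearer S100A13 start that lies before that of S100A1. The promoter windows are shown because the genes share this position. Each runs from 250 bases before the RefSeq start site to 50 bases after it (GRCh38.p14), 5′ to 3′ on the strand of the gene, with the 50 bases from the start site on in capitals. The S100A1 window is chr1:153628184-153628483 on the plus strand and the S100A13 window is chr1:153627456-153627755 on the minus strand.
S100A1: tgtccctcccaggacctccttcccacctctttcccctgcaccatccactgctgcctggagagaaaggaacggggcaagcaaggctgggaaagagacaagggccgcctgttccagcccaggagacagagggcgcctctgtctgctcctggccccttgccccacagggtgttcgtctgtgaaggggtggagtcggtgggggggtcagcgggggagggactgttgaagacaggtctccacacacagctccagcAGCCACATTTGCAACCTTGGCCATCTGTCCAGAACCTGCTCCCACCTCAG
S100A13: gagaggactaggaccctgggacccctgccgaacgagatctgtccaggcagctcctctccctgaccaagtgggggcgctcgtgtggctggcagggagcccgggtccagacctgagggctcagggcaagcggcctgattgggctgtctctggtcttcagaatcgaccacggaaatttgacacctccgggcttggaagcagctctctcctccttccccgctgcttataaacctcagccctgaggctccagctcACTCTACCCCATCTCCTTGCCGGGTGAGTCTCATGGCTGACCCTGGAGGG
S100A13 has other starts, of which 1 lies 5927 bases beyond the S100A1 start. RNA of the genes differed in A375-BIR, where S100A1 stood at 2.31 ± 1.21 CPM with DMSO and S100A13 at 189 ± 15.4 CPM. Neither window shown holds any of the 4 short motifs searched on both strands: TGANTCA, the AP-1 site, CATGTG or CACGTG, the E-box form that MITF binds, ACAAAG, a SOX core, and GGAATG, a TEAD core.

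Windows were available for 28 of the 31 members and for 15 of the 16 tested, S100B being the exception, and they numbered 39 because some genes have several starts. The AP-1 letters were in 5 member windows, or 12.8%, beside 7.71% of all 35116 windows of this length, and the E-box letters in 7, or 17.9%, beside 17.6%. The SOX letters and the TEAD letters were each in 3 windows, or 7.69%, beside 16.1% and 14.03%. Among tested members, the AP-1 letters were found in ANXA2 and S100A2, the E-box letters in ANXA4, ANXA6, S100A13 and S100A16, the SOX letters in ANXA1 and the TEAD letters in S100A16. A match is a description of letters and not evidence of a bound site. The windows of ANXA1 and ANXA2 are shown because their RNA had the lowest adjusted p among the annexins in a response to dabrafenib and between the lines in it, with the motif letters in capitals. The ANXA1 window is chr9:73151615-73151914 on the plus strand, with the SOX letters in reverse complement 178 and 124 bases before the start site. The ANXA2 window is chr15:60397937-60398236 on the minus strand, with the AP-1 letters 127 bases before the start site.
ANXA1: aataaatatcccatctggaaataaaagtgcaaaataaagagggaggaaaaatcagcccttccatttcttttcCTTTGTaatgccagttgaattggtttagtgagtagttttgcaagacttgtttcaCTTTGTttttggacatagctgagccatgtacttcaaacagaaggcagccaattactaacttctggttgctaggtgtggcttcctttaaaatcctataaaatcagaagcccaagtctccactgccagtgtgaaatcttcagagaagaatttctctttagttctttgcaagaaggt
ANXA2: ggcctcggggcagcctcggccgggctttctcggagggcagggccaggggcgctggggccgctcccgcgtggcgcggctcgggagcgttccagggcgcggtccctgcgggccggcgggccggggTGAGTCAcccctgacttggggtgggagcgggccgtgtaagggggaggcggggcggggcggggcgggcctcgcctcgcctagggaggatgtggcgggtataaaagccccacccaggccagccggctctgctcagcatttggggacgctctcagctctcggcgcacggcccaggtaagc
The data hold no measure of binding or of chromatin at these windows.

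Other calcium genes were taken from lists of EF-hand proteins outside the S100 family, membrane binders other than annexins, partners and receptors, and genes of calcium entry and stores. In the response of A375-BIR, 0 of 28 EF-hand genes and 0 of 19 entry and store genes were called, 1 of 10 membrane binders was lower, which was the membrane repair gene DYSF (-0.82 ± 0.20), and 1 of 21 partners was lower, which was DLC1 (-0.80 ± 0.17). In the response of A375, 5 EF-hand genes were higher and 14 lower (median -0.77), led by ACTN1 (alpha-actinin, 413 to 44.1 CPM, -3.22 ± 0.25) and the calpain subunit CAPNS1 (-1.78 ± 0.23). The same comparison had 1 membrane binder higher and 1 lower, 5 partners higher and 4 lower, and 3 entry and store genes higher and 5 lower. Among these, the partner CD63 was lower (-2.32 ± 0.28), and AHNAK, the giant scaffold that S100A10 and ANXA2 bind, was higher (1.68 ± 0.26). ORAI1, the store-operated calcium channel subunit, was lower (-3.25 ± 0.50). Between the lines in DMSO, 8 EF-hand genes were higher and 8 lower, 4 and 2 membrane binders, 8 and 4 partners, and 3 and 7 entry and store genes. In dabrafenib the counts were 12 higher and 3 lower, 4 and 0, 6 and 4, and 3 and 3. There DYSF was higher in A375-BIR, with no count in A375 and 71.1 CPM in A375-BIR, and MYH9, the myosin heavy chain that S100A4 binds, was also higher (1.66 ± 0.20) with S100A4 itself not called. The partner LGALS3 was lower in A375-BIR (-1.77 ± 0.19). These shares stand beside the backgrounds of 2.46%, 38.6%, 51.8% and 42.7% given above.

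The 4 tested melanocyte lineage markers were, like S100A1 and S100B, lower in A375-BIR than in A375. Their log2 changes ran from -8.86 to -1.37 with DMSO and from -7.53 to -0.46 with dabrafenib. In the response of A375-BIR 1 of the 4 was called higher, beside 1.36% of all tested genes. The summed level of SOX10, MITF, PMEL, MLANA, TYR, TYRP1 and DCT was 1349 CPM in A375 with DMSO, 2815 to 3335 CPM in A375 with dabrafenib, and in A375-BIR 193 to 212 CPM before and 212 to 313 CPM after the drug. All 7 had a count in A375 with dabrafenib, 5 in each DMSO group and 4 in A375-BIR with dabrafenib. MLANA, a defining marker of the melanocyte lineage, had 1 count in all. SOX10 stood at 471 CPM in A375 with DMSO, 962 CPM with dabrafenib, and 41.1 and 53.8 CPM in A375-BIR. In the response of A375, where S100A1 and S100B fell, the markers were mixed: of 4 tested, SOX10 and DCT (417 to 1746 CPM) rose, MITF fell (411 to 245 CPM) and TYR was not called, and PMEL, which was not tested, stood at 15.1 and 9.84 CPM. The part of lineage state in these differences was not tested. Fewer cells with S100A1 or S100B RNA and less of it per cell cannot be told apart in bulk libraries. Myeloid, keratinocyte and fibroblast sums stayed between 10.2 and 69.4 CPM in all libraries, carried in the first by CD68 and in the second by KRT10.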

How the data were processed

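Per the labels, total RNA (250 ng) was made into 3′ tag libraries with the QuantSeq FWD kit (Lexogen) and sequenced on a NovaSeq instrument in single reads of 100 bases. What the authors deposited are raw read counts per gene for each of 12 libraries, with no normalization. The submitters' processing notes name hg38, while the aligner, the counting program, the annotation and its use of strand are not given in those sources. Of the 12 files, 10 list 33694 human genes, and 2, from A375 with DMSO, list 31053 mouse genes and were not used. Symbols were matched for 32807 identifiers, and 33132 are in GENCODE 29, which gave gene types and positions.

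Lines for reads given to no gene were left out of library totals. They took 68.9% to 79.6% of each human library's lines. Reads with no unique alignment were among them. These took 40.0% to 41.0% in A375-BIR with DMSO and 41.3% to 49.4% in A375-BIR with dabrafenib. In A375 they took 46.0% to 49.2% with dabrafenib and 52.5% with DMSO. Genes kept by filterByExpr (minimum count 10) were given TMM factors, and the model was that of edgeR 4.0.16 under R 4.3.3 (robust quasi-likelihood, 1 coefficient per group, 6 residual degrees of freedom), and 5 comparisons were each adjusted over all 10236 genes. The A375 DMSO library takes the spread of the other groups (common biological coefficient of variation 0.136). Standard errors were taken as the absolute log2 change over the root of its F value. Replicates differed by more than sampling noise (chi-square per degree of freedom 1.09 to 4.89). The spread was widest in A375-BIR with dabrafenib, at 4.26 to 4.89 between its libraries, against at most 2.45 in the other groups. Alternatives were other scalings, DESeq2 1.42.0, other count filters, thinning to 198690 counts, fits of only the groups compared, a replicate block and leaving out each library. Every tested member was named. Genes of the lists of other calcium genes were taken from those with the 2 smallest p per comparison, and only some of these are named. The members, lists and tests were chosen with earlier results of these data known. Promoter windows are from RefSeq (GRCh38.p14).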

Additional observations from a re-analysis of the deposited data

Results flagged for a closer look

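The responses of A375-BIR and A375 to dabrafenib differed, by the test of the difference itself (edgeR, adjusted over all tested genes), for 10 members. The log2 difference, A375-BIR minus A375, was 3.65 for S100A4, 2.94 for S100A1, 2.72 for S100A2, 1.59 for S100A13, 1.11 for S100A6 and 0.89 for S100A11. It was -2.75 for ANXA1, -2.05 for ANXA7, -1.36 for ANXA5 and -0.91 for ANXA2. Each of the 10 rests on the single A375 DMSO library, whose stamp and group cannot be told apart. S100A4 and S100A2 also pass the count filter only with that library.

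Data outside the comparisons hold a signal too. The files of A375 DMSO replicates 2 and 3 list mouse genes with 224221 and 652439 gene counts, although their labels state human, and their S100 and annexin counts were not used.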

How the results depend on the processing

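Over 18 alternatives, 26 of the 50 calls of members held wherever the member was tested, and no called value changed sign. The count of members called in the response of A375-BIR, 1, became 0 when counts were thinned to equal depth and 0 in a fit of only the groups compared, and ranged from 0 to 2 when 1 library was left out. In the response of A375 it went from 15 to 9 when genes needed a mean count of 50 and to 9 when thinned (11 to 16 with 1 library left out). Between the lines in DMSO it went from 12 to 7 and 7 under the same settings (10 to 12), and between the lines in dabrafenib from 12 to 7 with a mean count of at least 50 (8 to 12). For the difference between responses it went from 10 to 4 when thinned (6 to 12). The filter at a mean of 50 tests only 11 members and thinning 14. In the difference between responses S100A1, S100A11, ANXA2, ANXA5 and ANXA7 were tested when thinned and lost their calls. All genes called in the response of A375-BIR numbered 252, and 106 with DESeq2, 85 thinned, 137 at a mean count of 50 or more, 125 with only the groups compared, and 106 to 558 with 1 library left out. All genes called in the difference between responses numbered 2313, and 1153 with DESeq2 and 642 thinned. For the response of A375 they went from 3948 of 10236 to 1669 of 3336 at a mean count of 50 and to 1447 of 6925 thinned. Between the lines in DMSO they went from 5298 of 10236 to 1895 of 3336 and 1892 of 6925. Between the lines in dabrafenib they went from 4374 of 10236 to 1764 of 3336 at a mean count of 50. In a fit of only the dabrafenib groups they were 3123 of 7550, with 8 members called.

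Replicate numbers did not pair the libraries: same-numbered libraries of different groups had correlations from -0.205 to 0.134, 1 of 9 over 0.1. With the replicate number as a block, 1, 13, 11, 10 and 5 members were called in the 5 comparisons, in the order above, beside 239, 3296, 4579, 4292 and 1750 of all 10236 genes tested.

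Depth limits the low members most: S100A1 and S100B held 4 to 9 counts per A375-BIR group, S100A2 held 3 counts in A375 with dabrafenib, and 15 members could not be tested.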
